A study of Homo sapiens with 2 samples.

Results

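The genes of the proteasome and of its assembly were compared between 2 arrays of RNA recovered from immunoprecipitates of 293T cells. The members were the genes whose platform annotation symbol, where a probe set has exactly 1, starts with PSMA, PSMB, PSMC, PSMD, PSME, PSMF or PSMG and a digit, together with POMP and ADRM1. This took 52 of the 19775 genes with a probe set of their own, on 100 of the 41091 probe sets with 1 symbol. Of the 52, 44 encode subunits, activators, an inhibitor or assembly factors. The other 8 share only the start of the symbol: PSMC3IP, PSME3IP1 and the noncoding transcripts PSMA3-AS1, PSMB8-AS1, PSMG3-AS1, PSMD6-AS2, PSMD7-DT and PSMD14-DT.

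293T is a transformed human embryonic kidney line that carries the SV40 large T antigen. One array held RNA of cells given synthetic miR-941, precipitated with an Ago2 antibody kit that the protocol names as a mouse Ago2 kit. The other held RNA of cells transfected with a scrambled oligonucleotide, and each oligonucleotide was given at 30 nmol/l. The labels of this control conflict, with Ago2 in the title but nonimmune IgG beads under the antibody. Should the antibody label be right, effects of the microRNA and of the antibody cannot be told apart. Each group is 1 array, so the differences have no replicate check and were not tested. Total RNA was not analysed here, so fewer transcripts in the cells and less recovery of them in the precipitate cannot be told apart.

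The 26S proteasome degrades proteins marked with ubiquitin. Its 20S core is a barrel of stacked rings, outer rings of alpha subunits that gate the entry and inner rings of beta subunits that cut the substrate. The 19S regulatory particle caps the barrel: its base holds a ring of ATPases that unfold the substrate, and its lid holds the enzyme that removes ubiquitin. Dedicated chaperones build the rings, and cells raise the subunit genes together, through the transcription factor NFE2L1, when proteasome activity is limiting. Ago2 holds microRNAs on the mRNAs they pair with, mainly through the seed, bases 2 to 8 of the microRNA.

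The transfected microRNA is printed first, since it is the difference between the groups that the labels agree on. RefSeq (GRCh38.p14) lists 5 copies of its gene on chromosome 20, the first mature one at chr20:63919495-63919517 on the plus strand, and all 5 give 1 mature sequence of 23 bases. The capitals mark the seed.
hsa-miR-941: cACCCGGCugugugcacaugugc
Matches to this seed in the members' mRNAs were not analysed here.

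Most proteasome genes read slightly higher on the miR-941 array. Each gene took the value of its brightest probe set and counted as detected when the mean of its 2 log2 values was above 0.92, the median over all probe sets other than controls. A difference of any size counted as higher or lower. Of the 52 members 45 were detected, and of these 37 were higher on the miR-941 array, 7 were lower and 1 was equal. Among all 13150 detected genes 46.3% were higher and 42.4% lower, and among the 8086 above the 75th percentile of level 47.8% were higher and 46.2% lower. The median difference of the members, miR-941 array minus control array, was 0.15 on the log2 scale, where the median of all detected genes was 0.00. Centring each array on its own median lowers every difference by the same amount: 32 members were then higher and 13 lower, against 41.3% and 58.7% of all detected genes, with medians of 0.09 for the members and -0.06 for all. Restricted to the 41 detected subunits and factors, 33 were higher and 7 lower, 1 did not differ, and the median was 0.13.

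The differences were small. By the brightest probe set no member reached 2-fold, where 0.228% of detected genes were 2-fold or more higher and 0.289% lower. None reached 1.5-fold, where the shares were 2.94% and 2.87%. PSMC2 was more than 1.5-fold lower with its probe sets averaged (-0.78) or by their median (-0.69). The differences of the brightest probe sets ran from -0.37 for PSMC3 to 0.52 for PSMF1. Their SD was 0.18 over the 45 members, against 0.30 over all detected genes and 0.26 over those above the 75th percentile. The only measure of technical spread was between probe sets of the same gene, which are not replicates: their pooled within-gene SD was 0.31 over 6106 genes. Of the 45 members, 6 were higher and 3 lower by more than that, where 13.2% and 12% of all detected genes were. The members nearest the detection level were PSMA3-AS1 (mean 1.19) and PSMG3-AS1 (1.88) inside it and PSMB9 (0.69) and PSMD6-AS2 (0.62) outside it.

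**Figure D1:**
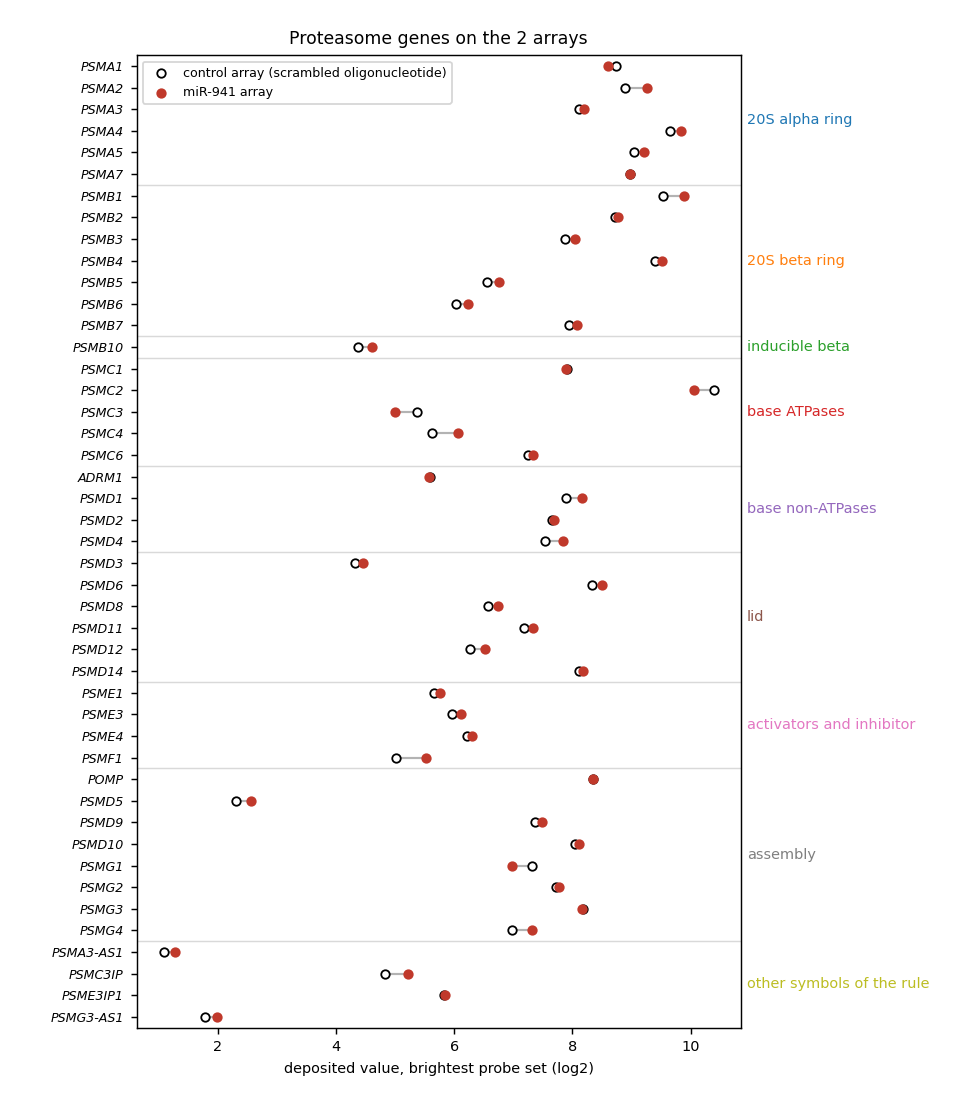
Deposited log2 values (x axis) of the brightest probe set of each of the 45 detected members (y axis, ordered by role), with open circles for the control array and filled red circles for the miR-941 array, 1 array each. Most red circles lie to the right of the open ones by a small step, while those of PSMC2, PSMC3, PSMG1 and PSMA1 lie clearly to the left.

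**Figure D2:**
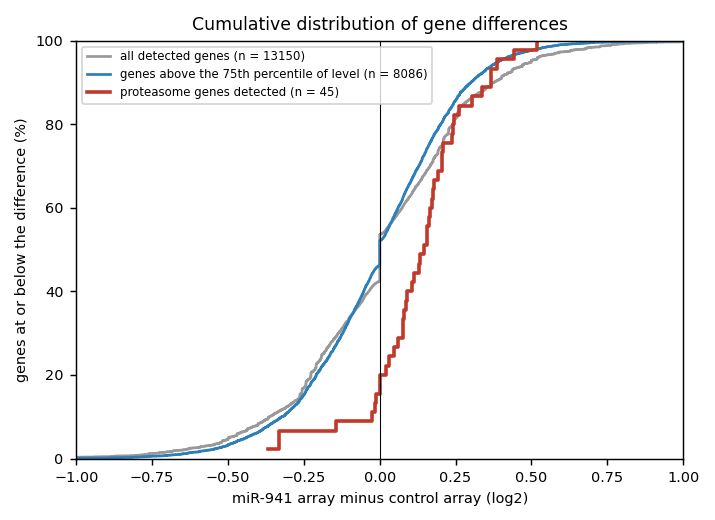
Share of genes (y axis, percent) at or below each difference (x axis, miR-941 array minus control array, log2) for the 45 detected members, all 13150 detected genes and the 8086 above the 75th percentile of level. The members' curve crosses 50% at 0.15, and the other curves cross it at 0.00.

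In the alpha ring, the gate of the core, 5 of 6 detected genes read higher and 1 read lower, and the median was 0.13. The 5 include PSMA7 at 0.0017. PSMA2 read 8.90 in the control and 9.26 with miR-941 (0.37), and its second probe set read 5.26 and 5.78 (0.52). Both probe sets of PSMA2 were thus higher on the miR-941 array. PSMA4 had 9.66 and 9.83, and PSMA5 had 9.04 and 9.21, a difference of 0.17 for each. PSMA3 had 8.11 and 8.20. PSMA7 read 8.97 on both arrays to 2 decimals, its second probe set was lower by 0.12 (7.38 and 7.26), and so no direction is given for it. PSMA1 was the exception in this ring. Its brightest probe set read 8.74 in the control and 8.60 with miR-941, the next 8.60 and 8.45, and the third differed by -0.21. These differences are small and all on the lower side. PSMA8, which encodes the form of an alpha subunit found in the testis, was not detected (0.24 and 0.35).

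All 7 constitutive beta ring genes were higher, with a median of 0.17 and a range of 0.05 to 0.37. The catalytic sites of the core lie in the products of PSMB5 (chymotrypsin-like), PSMB6 (caspase-like) and PSMB7 (trypsin-like). PSMB5 read 6.56 in the control and 6.76 with miR-941, PSMB6 read 6.03 and 6.24, and PSMB7 read 7.94 and 8.09. The differences of these 3 genes, 0.21, 0.21 and 0.15, were nearly the same size. Among the structural beta subunits PSMB1 read 9.53 and 9.90, a difference of 0.37, with 0.19 on its next probe set and 0.00 on a dim one that read 0.99 on both arrays. PSMB3 had 7.87 and 8.04. PSMB4 and PSMB2 were less uniform. The 3 probe sets of PSMB4 differed by 0.13, -0.13 and 0.51, and the 3 detected ones of PSMB2 by 0.05, -0.07 and 0.00. The small positive value of PSMB2 turned to -0.01 with arrays centred on their medians.

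The inducible beta subunits replace the catalytic ones in the immunoproteasome, which makes peptides for display to T cells. Only PSMB10 was detected, at 4.38 in the control and 4.62 with miR-941. PSMB8 read 0.40 and 0.19 and PSMB9 read 0.59 and 0.79, below the detection level. The 9 markers of T cells, B cells and myeloid cells, cells that make the immunoproteasome without induction, had 8 genes on the array, and 2 of them passed the detection level, CD79A (0.91 and 1.10) and ITGAM (0.87 and 1.10). PTPRC, the common leukocyte antigen, read 0.54 and 0.33.

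The ATPase ring in the base of the regulatory particle was the most divided group. Of its 5 detected genes 2 read higher and 3 lower, with a median of -0.02. The SD over these genes was 0.33, against 0.10 over the beta ring and 0.05 over the lid. PSMC4 read 5.62 in the control and 6.07 with miR-941, so that its single probe set differed by 0.44 (1.36-fold). PSMC3 read 5.36 and 5.00, which is -0.37 (1.29-fold lower), again from a single probe set. These ATPases sit in 1 ring and their genes differed in opposite directions. PSMC1 (7.91 and 7.89) and PSMC6 (7.25 and 7.33) differed by less than 0.1.

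PSMC2, another of these ATPases, was lower on every one of its probe sets. The brightest read 10.39 in the control and 10.06 with miR-941 (-0.33). The second read 5.13 and 4.44 (-0.69), and the third read 2.84 and 1.52 (-1.32). The difference was larger the dimmer the probe set, and the third is the only one of the 79 detected member probe sets past 2-fold; among all detected probe sets with 1 symbol 0.485% were 2-fold or more lower. At its level the difference of PSMC2 was also among the lower ones. Of 125 detected genes with a mean above 10, 8 had a difference at or below its -0.33, and the median of the 125 was 0.04; this comparison was chosen after its values were seen.

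The non-ATPase subunits of the base include the large scaffolds PSMD1 and PSMD2 and the ubiquitin receptors PSMD4 and ADRM1. PSMD4 read 7.53, 7.03 and 6.29 in the control and 7.84, 7.22 and 6.59 with miR-941, so its 3 detected probe sets differed by 0.30, 0.18 and 0.29. PSMD1 read 7.90 and 8.16 on the first probe set and 6.53 and 6.84 on the second, differences of 0.26 and 0.31. The probe sets of both genes were all on the higher side and close to one another. PSMD2 (7.66 and 7.68) and ADRM1 (5.58 and 5.57) were nearly equal on the arrays, and the sign of each turned under another scaling (PSMD2 -0.04 with centred arrays, ADRM1 0.01 after quantile normalization).

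The lid was the most even group: all 6 detected genes were higher, between 0.08 and 0.24, with a median of 0.16. PSMD14, the enzyme that cuts ubiquitin chains from the substrate, read 8.11 in the control and 8.19 with miR-941. PSMD12 had the largest difference of the lid, 6.28 against 6.51, and its second probe set had 4.93 against 5.04. PSMD11, whose product clamps the lid to the core, read 7.18 and 7.34, and its dimmer probe set read 3.35 and 3.76. Both genes were higher on both of their probe sets. PSMD6 had 8.33 and 8.51, PSMD8 had 6.57 and 6.74, and PSMD3 had 4.32 and 4.46. Of the other lid genes, PSMD7 and PSMD13 have no probe set of their own among the named ones and were not analysed here, nor were the ATPase gene PSMC5 and PSMB11, which encodes the thymus form of a beta subunit. SEM1, another lid subunit, falls outside the symbol rule and is not among the 6. Its probe set read 6.85 in the control and 6.92 with miR-941, a difference of 0.08.

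The core can also be capped by activators that do not recognise ubiquitin, and its activity is held down in vitro by the inhibitor PSMF1. All 4 detected genes of this group were higher, with a median of 0.13. PSME3, which encodes the nuclear activator PA28 gamma, was higher on all 4 of its probe sets, by 0.16, 0.14, 0.28 and 0.50 from the brightest to the dimmest. The brightest read 5.97 in the control and 6.12 with miR-941. PSME4, which encodes PA200, was higher on all 3 of its probe sets, by 0.09, 0.21 and 0.26. For both genes the brightest probe set therefore gave a smaller difference than the dimmest. PSME1, a subunit of the interferon-inducible activator PA28, read 5.65 and 5.76. PSMF1 had the highest difference of all members, 5.01 against 5.53 (1.43-fold), but its other probe sets had 0.02, 0.24 and 0.00, and the median over its 4 probe sets was 0.13.

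The assembly factors were mixed, with 5 of 8 higher, 2 lower and 1 equal and a median of 0.07. PSMG1 and PSMG2 form a pair that builds the alpha ring, as do PSMG3 and PSMG4. PSMG1 read 7.31 in the control and 6.98 with miR-941 (-0.33, a single probe set), while PSMG2 read 7.72 and 7.78. PSMG4 read 6.98 and 7.31, a difference of 0.34, and PSMG3 read 8.18 and 8.16. In each pair, then, the partners did not differ alike. The second detected probe set of PSMG4 was dim and went the other way (1.18 and 0.81). POMP, which helps to complete the core from its precursors, read 8.36 on both arrays. Among the chaperones of the base, PSMD9 was higher on both probe sets (7.37 and 7.48, 3.72 and 4.21), PSMD5 read 2.31 and 2.56, and PSMD10 had 0.08 on one probe set and -0.25 on the other.

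**Figure D3:**
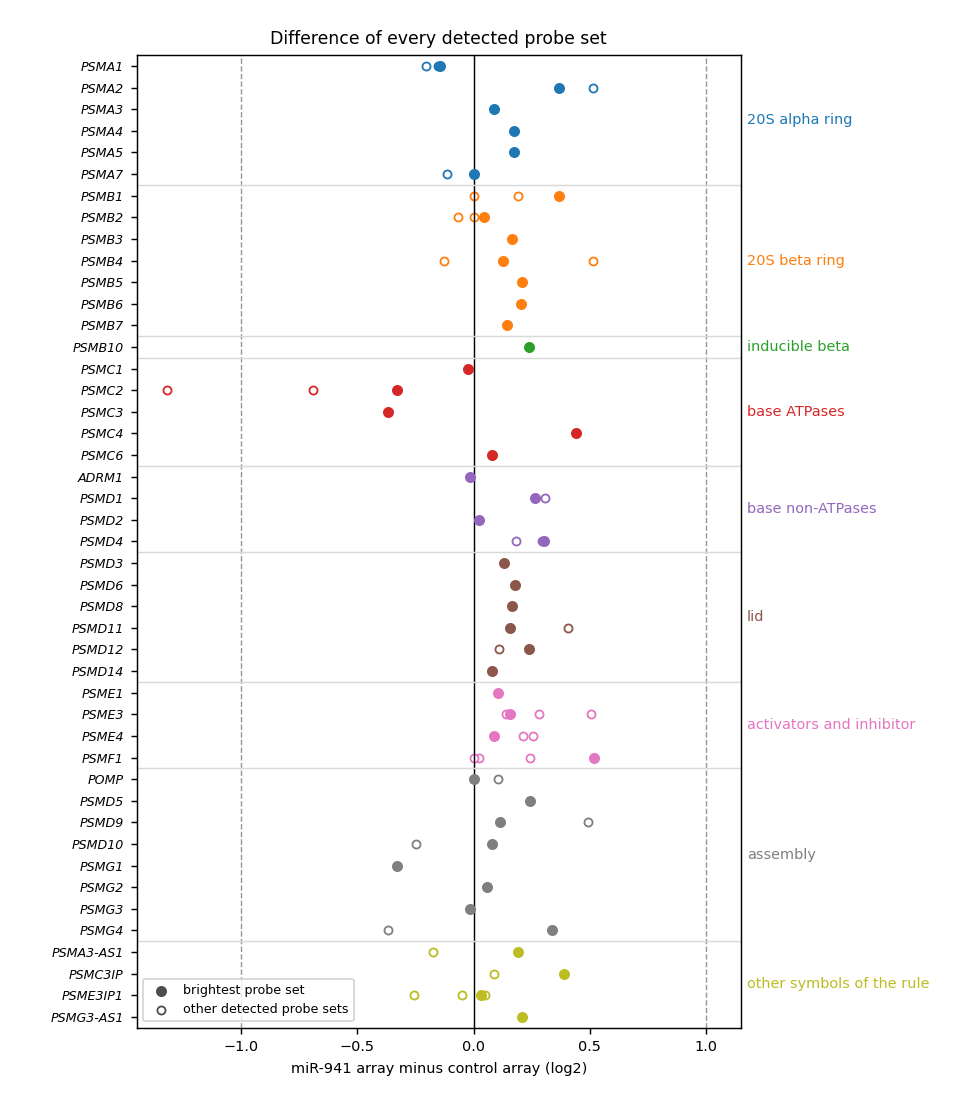
Difference between the arrays (x axis, miR-941 minus control, log2; dashed lines at 2-fold) for every detected probe set of the 45 detected members (y axis, by role), filled for the brightest probe set of a gene and open for the others. All lid and activator points lie at or above 0, the 3 PSMC2 points lie at -0.33, -0.69 and -1.32, and no other point passes 2-fold.

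Over the 79 detected member probe sets 56 were higher and 19 lower, with 4 equal, against 44.2% and 43.4% of all detected probe sets with 1 symbol. Among the 21 members measured by at least 2 detected probe sets, all were higher for 9 genes and all lower for 2, where 16.5% and 17.1% of all such genes did. The 9 were PSMA2, PSMD1, PSMD4, PSMD9, PSMD11, PSMD12, PSME3, PSME4 and PSMC3IP. The 2 were PSMA1 and PSMC2. The remaining 24 detected members rested on 1 detected probe set each, among them PSMC3, PSMC4 and PSMG1. Within members the pooled SD over probe sets was 0.22, below the 0.31 of all genes.

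The symbols that are no part of the proteasome gave 4 detected genes, all higher by the brightest probe set. PSMC3IP, whose product acts in meiotic recombination, read 4.83 and 5.22 on the brightest probe set and 4.46 and 4.55 on the other. The 4 probe sets of PSME3IP1, whose product binds PA28 gamma, were divided, 2 higher and 2 lower. The antisense transcripts PSMG3-AS1 (1.78 in the control, 1.99 with miR-941) and PSMA3-AS1 (1.09 and 1.28) were dim. The other detected probe set of PSMA3-AS1, of nearly the same level, was lower (1.09 and 0.92). PSMB8-AS1, PSMD6-AS2, PSMD7-DT and PSMD14-DT were not detected. Probe sets that carry a proteasome symbol and another gene's symbol fell outside the members. Those of PSMA6 with PRORP differed by 0.11 and 0.03, that of PSME2 with MIR7703 by -0.04, and those of PSMA2 with C7orf25 by 0.00 and 0.45.

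**Figure D4:**
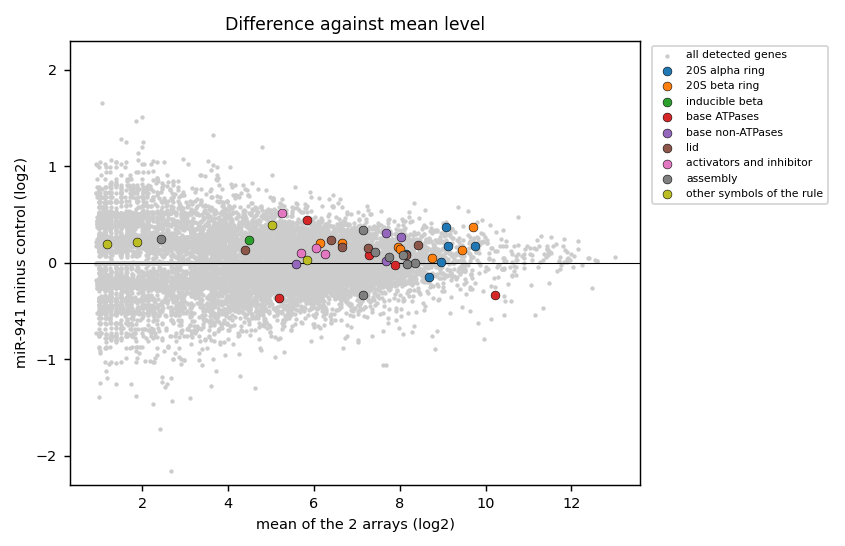
Difference between the arrays (y axis, miR-941 minus control, log2) against the mean of both arrays (x axis, log2) for all 13150 detected genes (grey) and the 45 detected members (coloured by role). The members spread over levels from 1.19 to 10.22, and the PSMC2 point at 10.22 lies below most grey points of its level.

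Across the 41 detected subunits and factors the difference had Pearson's r of -0.17 with the mean level and 0.05 with the logarithm of the gene's span in RefSeq, given as descriptions over genes that share 2 hybridisations. Over all detected genes these values were -0.04 and -0.10. The control probe sets for ACTB differed by -0.66 at the 5' end and -0.04 at the 3' end, and those for GAPDH by -0.19 and 0.05; the part of RNA quality in the members' differences was not tested. All 8 genes described in 293 cells passed the detection level, but PAX2 (0.86 in the control, 1.23 with miR-941) lay below it on the control array. Of the 20 marker genes on the array for lineages outside kidney 8 passed it, and the log2 of the summed linear values of all 20 was 7.32 in the control and 7.80 with miR-941, mostly from HBB (6.95 and 7.54). The part of this difference in the members' values was not tested.

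The proteasome works beside a wider set of ubiquitin carriers, shuttles, regulators and peptidases. The list used for them also held SEM1, a lid subunit whose symbol falls outside the rule. Of 37 genes listed, 32 were on the array under their own symbol, all 32 detected. Of these, 18 (56.25%) read higher, 11 (34.4%) lower and 3 did not differ, against 46.3% higher and 42.4% lower of all detected genes. Their median was 0.06, where that of all detected genes was 0.00. With arrays centred on their medians both fell by the same amount, to -0.00070 and -0.06. The highest were ECPAS, a scaffold that binds the 26S particle (4.10 and 4.81, a difference of 0.70), the shuttle UBQLN2 (6.76 and 7.28, 0.52) and the aminopeptidase NPEPPS (6.49 and 6.95, 0.46). NPEPPS was higher on all 3 probe sets and UBQLN2 on both, whereas 1 of 3 of ECPAS was lower. The lowest were NFE2L1, the transcription factor of the subunit genes named above (5.55 and 5.08, -0.47), the ubiquitin ligase UBE3A (7.41 and 7.10, -0.31) and ZFAND5, which stimulates the 26S particle (8.18 and 7.94, -0.24). NFE2L1 was lower on 2 of its 3 probe sets and equal on the other, UBE3A lower on 4 of 5 and ZFAND5 on both. The median over their probe sets was -0.20, -0.10 and -0.18.

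The promoters of the members were examined because the subunit genes are known to be raised together. RefSeq windows (GRCh38.p14) running from 250 bases before to 50 bases after a gene's start were found for 38 of the 44 subunits and factors; those of PSMA7, PSMB1, PSMB6, PSMB7, PSMD4 and PSMG3 were not in the table. In all, 8 short motifs were searched on both strands, and a gene counted when any of its windows held the motif. The core of the antioxidant response element to which NFE2L1 binds, TGACNNNGC, was in 14 of 38 members' windows (36.8%), against 16.1% of all 27305 genes with a window and 19.7% of the 10648 of them that were detected. The ETS motif CGGAAGT was in 14 (36.8%), against 8.18% and 14.7%. CCAAT was in 18 (47.4%), against 39.7% and 43.0%, and the GC box GGGCGG in 25 (65.8%), against 48.3% and 75.9%. The share with the first motif and with the ETS motif was thus above that of all genes and of detected genes, while that of the GC box lay between them. The 38 members include PSMA8, PSMB8 and PSMB9, which were not detected, so they are not fully alike to the detected genes. Of the 14 members with TGACNNNGC 13 were detected, as were 13 of the 14 with the ETS motif. GGAAGTG, which overlaps the ETS motif, was in 10 (26.3%, against 13.4% and 18.3%). TGACTCAGC, a spelling of the response element core without free letters, was in none. TGAGTCAGC, which does not match that core, was in 1, PSMD9, and the palindromic site of nuclear respiratory factor 1 was in 1, PSMA4. Each of these strings was in under 3% of genes.

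The difference between the arrays was also set beside the motifs. The median difference was 0.13 for the 13 detected members with TGACNNNGC and 0.11 for the 22 without. It was 0.16 for the 13 with CGGAAGT and 0.11 for the 22 without, and 0.13 for the 17 with CCAAT and 0.12 for the 18 without. For other motifs the order was turned: 0.09 for the 9 with GGAAGTG and 0.14 for the 26 without, and 0.11 for the 22 with the GC box and 0.13 for the 13 without. These are descriptions: a match is a string of letters and not a shown binding site.

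The 4 sequences below are the 250 bases before the start of the members with the 2 highest and the 2 lowest differences among those with a window, shown to set the promoters of genes that differed in opposite directions side by side. They are printed 5' to 3' on the gene's own strand, and capitals mark the response element core, the ETS motif, the CCAAT box and the GC box on either strand. PSMF1 (0.52; chr20:1118352-1118601, plus strand) has 2 windows and the one with more matches is shown, PSMC4 (0.44) lies at chr19:39970915-39971164 on the plus strand, PSMC3 (-0.37) at chr11:47426440-47426689 on the minus strand, and PSMG1 (-0.33) at chr21:39183452-39183701 on the minus strand.
PSMF1: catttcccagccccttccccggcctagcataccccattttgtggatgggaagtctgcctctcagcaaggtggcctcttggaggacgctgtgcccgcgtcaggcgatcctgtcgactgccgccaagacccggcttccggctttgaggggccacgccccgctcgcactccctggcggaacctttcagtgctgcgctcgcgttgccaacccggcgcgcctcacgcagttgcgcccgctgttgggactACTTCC
PSMC4: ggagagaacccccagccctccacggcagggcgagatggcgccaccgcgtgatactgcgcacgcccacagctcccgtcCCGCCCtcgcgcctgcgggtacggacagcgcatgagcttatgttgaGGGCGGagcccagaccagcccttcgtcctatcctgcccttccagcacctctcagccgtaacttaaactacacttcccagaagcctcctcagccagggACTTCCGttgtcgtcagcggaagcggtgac
PSMC3: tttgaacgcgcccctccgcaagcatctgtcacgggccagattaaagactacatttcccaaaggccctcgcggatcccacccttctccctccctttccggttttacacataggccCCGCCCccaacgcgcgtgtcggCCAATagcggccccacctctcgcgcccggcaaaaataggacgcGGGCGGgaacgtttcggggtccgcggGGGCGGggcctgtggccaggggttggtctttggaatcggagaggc
PSMG1: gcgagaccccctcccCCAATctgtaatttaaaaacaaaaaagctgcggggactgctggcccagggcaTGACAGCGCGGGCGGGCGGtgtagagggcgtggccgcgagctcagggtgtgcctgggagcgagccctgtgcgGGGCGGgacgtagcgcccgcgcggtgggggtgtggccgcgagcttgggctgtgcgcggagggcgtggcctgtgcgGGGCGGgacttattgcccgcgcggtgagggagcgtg
Both genes that were higher carry the ETS motif close to the start, at bases -6 and -30, and neither gene that was lower does. At -6 the last letter of the motif lies past the printed stretch. That match is in the PSMF1 window chosen for having more matches. By the median over its 4 probe sets PSMF1 differed by only 0.13. PSMC2, which was lower, holds the ETS motif in its window. Among the detected members with a window, 10 of the 13 with the ETS motif and 18 of the 22 without it were higher. A role of the motif was not tested. The response element core lies at base -183 in PSMG1 and, in PSMC4, at base 28 after the start, beyond the printed stretch. Among the members, 1 coding gene separates PSMB8 from PSMB9 in the genome.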

How the data were processed

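RNA from precipitates of 293T cells was profiled on 2 Affymetrix arrays, 1 per group, grouped by the transfected oligonucleotide. The deposited table holds 1 log2 value per probe set and array; the design text states RMA, run in R by the authors, and the submitters' processing notes add affy and MAS5 with neither version nor role. Scale and centring are not given in the sources used here. The values were read as log2, from their range (-0.31 to 13.7; array medians 0.92 and 0.98). Dim probe sets repeat values near the floor, so their differences are coarse.

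Gene names came from the platform annotation, with symbols updated through Entrez identifiers to RefSeq (GRCh38.p14). The members and lists were chosen with earlier results of these data known. Every detected member could be named, and of the other ubiquitin genes the 3 highest and the 3 lowest. SEM1 was named besides, as a lid subunit. Differences were computed with pandas 2.3.3, and counting was tested on simulated data. Alternatives changed the probe set used, the level filter, the fold threshold and the scaling (a loess trend with a span of 0.3, median centring or quantile normalization). With 1 array per group, the number of arrays limits the precision, and nothing about other cultures is known. Figures were drawn with matplotlib 3.10.9.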

Additional observations from a re-analysis of the deposited data

How the results depend on the processing

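No paired analysis was possible because there is only 1 array a group, and leaving one out would end the comparison. The count of members higher on the miR-941 array (37 of 45) was 26 of 34 without _x_at and _s_at probe sets and 40 of 52 with no level filter. In the settings with 45 members it ran from 32 with centred arrays to the 37 of the main setting. The count higher exceeded the count lower under each of the 9 changes of probe set, filter or scaling. The 7 lower became 12 when a gene's probe sets were averaged and 11 when their median was taken. Centring the arrays shifts every difference by -0.0598, the median of all detected genes then, so its values follow from the shift: 13 members lower, a members' median of 0.0852 and one of -0.00070 for the other ubiquitin genes. No member reached 2-fold under any of these. With averaged probe sets 5 of 45 single genes changed sign. The median of the assembly factors was -0.01 and that of the base ATPases 0.08 without _x_at and _s_at probe sets. The PSMC2 difference was -0.78 averaged over probe sets and -0.69 by their median or without those probe sets, and PSMF1 had 0.20 averaged and 0.13 by the median. Without _x_at and _s_at probe sets PSMB1 had 0.00, PSMD10 -0.25 and PSMG4 -0.37; PSMG4 had -0.02 averaged or by the median.

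Over all detected genes 30 were 2-fold higher and 38 lower; a filter at the 75th percentile, which tests fewer genes, left 4 and 7. The 38 became 18 with averaged and 18 with median differences, and with centred arrays 13 were higher and 51 lower. At 1.5-fold the counts were 387 and 378, and at 4-fold 0 and 1. Causes of these shifts were not tested.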
